A study of Mus musculus with 2 samples.

Results

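Proliferating T cells were followed in 1 WT and 1 DKO-severe mouse, and were chosen by their transcripts: a barcode with at least 500 genes and at most 10% mitochondrial UMIs was taken as a T cell when it held at least 1 UMI (unique molecular identifier, 1 counted transcript molecule) of *Cd3d*, *Cd3e* or *Cd3g*, at most 1 UMI of *Cd79a* and at most 10 UMIs of *S100a8*, and as proliferating when it also held at least 1 UMI of both *Mki67* and *Top2a*. This rule selected 464 cells of 12993 T cells and of 14350 deposited barcodes. Of these, 47 came from the WT mouse and 417 from the DKO-severe mouse. Both mice were 14 weeks old and on a B6 background, and TCRβ+ cells had been sorted from their spleen pooled with inguinal and cervical lymph nodes. The WT mouse carried Foxp3Cre alone. The DKO-severe mouse carried Foxp3-Cre with floxed *Tet2* and *Tet3* (Tet2/3 fl/fl) and had been placed in the severe class by its total leukocyte number. In both mice Cre was expressed together with YFP from the *Foxp3* locus, so that it acted in Treg cells and their progeny, and the study describes this Cre as leaky outside them. The 2 mice were tagged with different hashtag antibodies and shared 1 mRNA library and 1 hashtag library. With 1 mouse per genotype no difference has a replicate check. Genotype and mouse cannot be told apart, and every interval below is an exact 95% interval for counting error only.

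A T cell that has met antigen re-enters the cell cycle. It copies its DNA in S phase with the help of the MCM helicase, PCNA and the enzymes of nucleotide synthesis, and then passes through G2 into mitosis under CDK1 and the A- and B-type cyclins. Ki-67, the product of *Mki67*, coats the mitotic chromosomes, and topoisomerase IIα, the product of *Top2a*, untangles the copied DNA. Both transcripts are made from S phase to mitosis and are almost absent from resting cells. Genes of S phase are commonly controlled by E2F proteins, and those of G2 and mitosis by a complex that reads the CHR element, often beside CCAAT boxes bound by NF-Y.

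*Mki67* (ENSMUSG00000031004) lies on the minus strand at chr7:135689784-135716361 and *Top2a* (ENSMUSG00000020914) on the minus strand at chr11:98992943-99024189 of mm10. *Birc5*, which encodes the chromosomal passenger survivin (ENSMUSG00000017716), lies on the plus strand at chr11:117849251-117855743, and *Cdk1*, the mitotic kinase (ENSMUSG00000019942), on the minus strand at chr10:69335146-69352938. The lineage genes were *Cd4* at chr6:124864692-124888221, *Cd8a* at chr6:71373427-71379173, *Cd8b1* at chr6:71322788-71337494, *Foxp3* at chrX:7573644-7595245, *Cntn5* at chr9:9660891-10904775 and *Gzma* at chr13:113093825-113100981.

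The promoters of both genes of the rule, of *Cdk1* and of the helicase gene *Mcm5* are shown because the cells are defined by genes of this programme. Each window runs from 250 bases before to 50 bases after the start of transcription, 5′ to 3′ on the strand of the gene, from RefSeq (GRCm38.p6). Capitals mark the CHR element (TTTGAA), E2F motifs (TTTCCCGC or TTTGGCGC) and the CCAAT box (CCAAT), each on either strand, and no match overlapped another. The windows lie at chr7:135716330-135716629, chr11:99024140-99024439, chr10:69352863-69353162 and chr8:75109259-75109558.
Mki67: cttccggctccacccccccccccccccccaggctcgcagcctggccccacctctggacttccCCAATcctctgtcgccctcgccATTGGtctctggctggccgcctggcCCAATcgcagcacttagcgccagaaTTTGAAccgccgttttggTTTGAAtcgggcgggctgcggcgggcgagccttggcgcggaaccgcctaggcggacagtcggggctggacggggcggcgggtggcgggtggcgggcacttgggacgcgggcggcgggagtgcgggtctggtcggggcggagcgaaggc
Top2a: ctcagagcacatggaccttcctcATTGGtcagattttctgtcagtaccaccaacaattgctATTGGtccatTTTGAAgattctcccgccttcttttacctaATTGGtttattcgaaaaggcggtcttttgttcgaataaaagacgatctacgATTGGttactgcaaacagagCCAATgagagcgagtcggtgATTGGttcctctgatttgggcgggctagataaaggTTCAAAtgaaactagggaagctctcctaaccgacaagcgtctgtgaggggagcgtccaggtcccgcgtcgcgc
Cdk1: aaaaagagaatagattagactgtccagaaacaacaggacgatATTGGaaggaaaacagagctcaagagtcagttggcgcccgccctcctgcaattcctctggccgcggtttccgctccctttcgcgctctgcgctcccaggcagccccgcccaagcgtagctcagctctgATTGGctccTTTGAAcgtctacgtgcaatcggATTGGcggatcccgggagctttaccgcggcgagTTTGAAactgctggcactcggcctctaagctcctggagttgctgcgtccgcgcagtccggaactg
Mcm5: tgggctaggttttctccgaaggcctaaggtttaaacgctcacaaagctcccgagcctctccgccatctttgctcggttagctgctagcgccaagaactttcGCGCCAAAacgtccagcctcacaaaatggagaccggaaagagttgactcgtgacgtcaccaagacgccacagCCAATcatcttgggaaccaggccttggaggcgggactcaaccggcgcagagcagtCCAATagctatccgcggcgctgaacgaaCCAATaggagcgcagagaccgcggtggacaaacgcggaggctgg
The first 3 windows each held 2 CHR matches and no E2F match, and the *Mcm5* window held 1 E2F match and no CHR match. The *Birc5* window held none of these letters. Across the lists, CHR letters were found in 31 of the 45 G2/M genes with a promoter entry (68.9%) and in 6 of 31 S phase genes (19.4%), beside 20.2% of all 27025 genes. E2F letters were found in 10 of the 31 S phase genes (32.3%) and 2 of the 45 G2/M genes (4.44%), beside 1.80% of all genes. CCAAT letters were in 71.0% of the S phase genes, 75.6% of the G2/M genes and 41.1% of all genes. These matches describe the sequences and are not measured binding sites.

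The files held 7189 WT barcodes with 45294779 UMIs and 7161 DKO-severe barcodes with 69692053 UMIs, with medians of 5626 and 7975 UMIs per barcode. No barcode was in both matrices, and 3 WT T cells, none of them proliferating, had a hashtag count against their label. Levels are given as CPM, the UMIs of a gene per 1000000 UMIs of the cells summed. *Tet2* stood at 57.7 CPM in DKO-severe and 36.8 CPM in WT proliferating T cells and *Tet3* at 84.3 and 99.9 CPM, but a 3′ tag does not read the floxed exons, so these levels do not check the deletion.

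Cycling T cells made up 0.678% of WT T cells (0.499 to 0.900%) and 6.88% of DKO-severe T cells (6.26 to 7.55%), and the intervals did not overlap. The cells were large in RNA. Their median was 19278 UMIs in WT and 19890 in DKO-severe, against 5670 and 8008 in the other T cells, and deeper cells have more chances to show both transcripts. After every cell was thinned to 3800 UMIs, 30 of 6246 WT cells (0.480%) and 208 of 5719 DKO-severe cells (3.64%) still held both. The DKO-severe share was higher at either depth.

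The rule had required a *Cd3* UMI. Of the T cell markers it did not use, the receptor constant segments, *Trac* stood at 530.1 CPM in WT members and 608 CPM in those of DKO-severe, and *Trbc2* at 1901 and 1709 CPM. *Birc5* had a UMI in 78.7% of the WT members and in 70.0% of the DKO-severe members, against 2.99 and 5.39% of the other T cells. *Cdk1* had one in 70.2 and 64.0% of members, against 1.29 and 2.53% of the other T cells. Both belong to the programme that chose the cells and are given as a description. At the edge of the rule, 8 WT and 52 DKO-severe members held exactly 1 UMI of each gene, and G2/M genes took a median of 0.182% of their UMIs in both genotypes. Just outside it, 156 WT and 341 DKO-severe T cells held *Mki67* without *Top2a*, with G2/M medians of 0.177 and 0.179%. T cells with neither gene stood at 0.161 and 0.153%. Cells at the edge were therefore close in G2/M genes to cells outside it.

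Some DKO-severe members also carried RNA of other cells. By limits set after seeing the data, 66 of the 417 (15.8%) held RNA of monocytes or macrophages (31 cells), B cells (27 cells) or erythroid cells (12 cells), or few T cell transcripts (10 cells), against 5.14% of the other DKO-severe T cells and 2 of the 47 WT members. The monocyte list summed to 529.9 CPM in DKO-severe members and 6.31 CPM in those of WT. Without these cells 0.661% of WT T cells and 6.15% of DKO-severe T cells were cycling. The part of doublets in this RNA was not tested, since the automatic doublet threshold marked 0 cells in either mouse and did not work. The highest 6% of doublet scores held 46 DKO-severe members (11.0%), against 4.34% of the other DKO-severe T cells, and 1 WT member.

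CD4 and CD8 mark helper and killer lineages. A cell with *Cd4* and neither *Cd8a* nor *Cd8b1* was called Cd4-gated, and the converse Cd8-gated. Of the 47 WT members, 11 were Cd4-gated (23.4%), 22 Cd8-gated (46.8%), 7 held both and 7 neither. Of the 417 DKO-severe members, 251 were Cd4-gated (60.2%), 58 Cd8-gated (13.9%), 52 held both (12.5%) and 56 neither (13.4%). The other T cells were 25.6% Cd4-gated and 46.9% Cd8-gated in WT, and 45% and 30.2% in DKO-severe. Of the 52 DKO-severe members with both, 17 (32.7%) were among the highest 6% of doublet scores, with a median of 28716 UMIs over the 52.

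**Figure D1:**
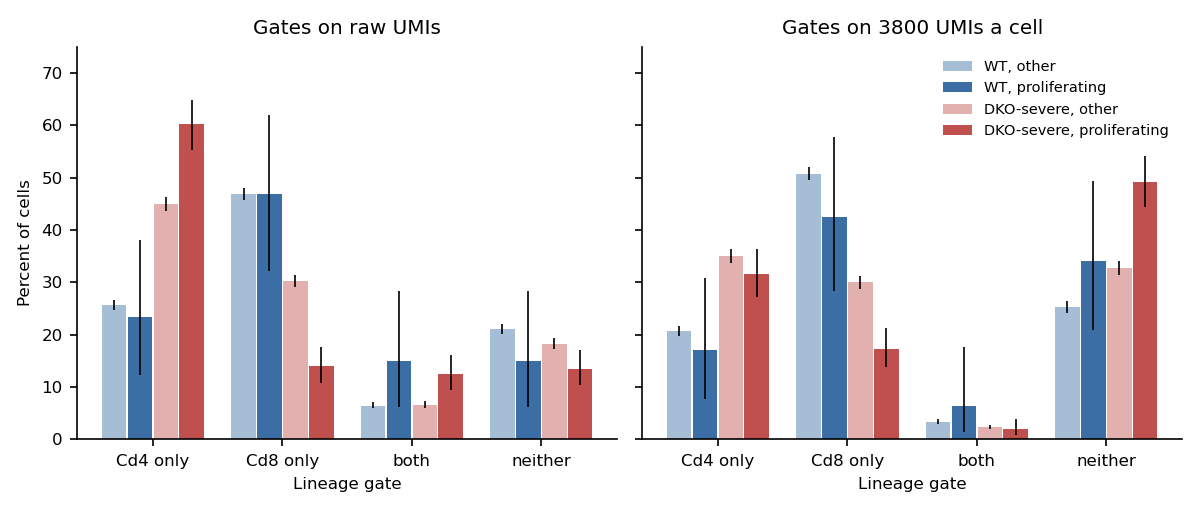
Percent of proliferating (solid) and other (pale) T cells in each lineage gate for WT and DKO-severe, on the counts as deposited (left) and after each cell was thinned to 3800 UMIs (right); bars start at 0 and lines are exact 95% intervals for counting error. On the deposited counts, 60.2% of DKO-severe and 23.4% of WT proliferating T cells were Cd4-gated, and thinning moved many cells to the gate with neither gene.

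*Cd4* is a low transcript, so these gates read depth as well as lineage. Thinning can also move a cell that held both coreceptors into the Cd4 or the Cd8 gate. After thinning, 203 of the 412 DKO-severe members deep enough (49.3%) fell in neither gate, and 130 (31.6%, 27.1 to 36.3%) were Cd4-gated and 71 (17.2%, 13.7 to 21.2%) Cd8-gated. The other DKO-severe T cells were then 35.1% Cd4-gated and 30% Cd8-gated. At equal depth members were thus no richer in Cd4-gated cells than the other T cells, unlike on the deposited counts, while the smaller Cd8-gated share remained. Among cells in either the Cd4 or the Cd8 gate, the Cd4-gated share of thinned DKO-severe members was 64.7% (130 of 201, 57.6 to 71.3%), and that of the other DKO-severe T cells 53.9% (52.2 to 55.6%). These intervals did not overlap, nor did they without RNA of other cells, at 63.2% (55.6 to 70.4%) and 53.1% (51.4 to 54.8%). In WT the same shares were 28.6% (8 of 28 members, 13.2 to 48.7%) and 28.9%. WT cycling cells thus did not depart from the lineage mix of the other WT T cells by more than counting error. The WT interval would also hold a shift as large as that in DKO-severe, so no difference between the genotypes is read from it. The levels gave the same order in DKO-severe. *Cd8b1*, the β chain of the CD8 coreceptor, stood at 73.4 CPM in members and 210 CPM in other T cells, a log2 ratio of -1.52 (-1.63 to -1.41), and *Cd4* at 137 and 169 CPM, a log2 ratio of -0.31 (-0.39 to -0.22). Both coreceptors took a smaller part of the RNA of cycling cells, *Cd8b1* more so.

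The share of each lineage that was cycling was read with gates on thinned counts, so that a lineage was called at 1 depth, and membership on the deposited counts. In DKO-severe, 130 of 1982 Cd4-gated cells (6.56%, 5.51 to 7.74%) and 71 of 1654 Cd8-gated cells (4.29%, 3.37 to 5.38%) were proliferating. Cells with neither coreceptor after thinning were cycling at 10.5% (203 of 1930). On the deposited counts only 56 DKO-severe members held neither, so many of these 203 had lost their coreceptor UMIs in thinning. Cd4-gated members fell from 251 to 130 in thinning, while Cd8-gated members went from 58 to 71. The thinned Cd4 gate thus left out many cycling cells that held *Cd4* on the deposited counts. In WT, 8 of 1289 Cd4-gated cells (0.621%, 0.268 to 1.22%) and 20 of 3165 Cd8-gated cells (0.632%, 0.386 to 0.974%) were. Both DKO-severe lineages were above both WT lineages with no overlap of intervals, and the WT lineages overlapped. Within DKO-severe the Cd4-gated share was above the Cd8-gated share by a narrow margin of the intervals. The order held without the highest 6% of doublet scores, at 5.95% (4.93 to 7.1%) and 4.12% (3.19 to 5.23%), and without RNA of other cells, at 5.85% (4.83 to 7.01%) and 3.93% (3.04 to 4.99%), but in both the intervals overlapped. Over the alternatives tried they overlapped in 6 of 9, with the Cd4-gated share the higher in each. Overlap of separate intervals does not by itself place a difference within counting error. The difference between the lineages was not tested. On the deposited counts the DKO-severe shares stood further apart, at 9.0% (251 of 2789) and 3.29% (58 of 1763).

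**Figure D2:**
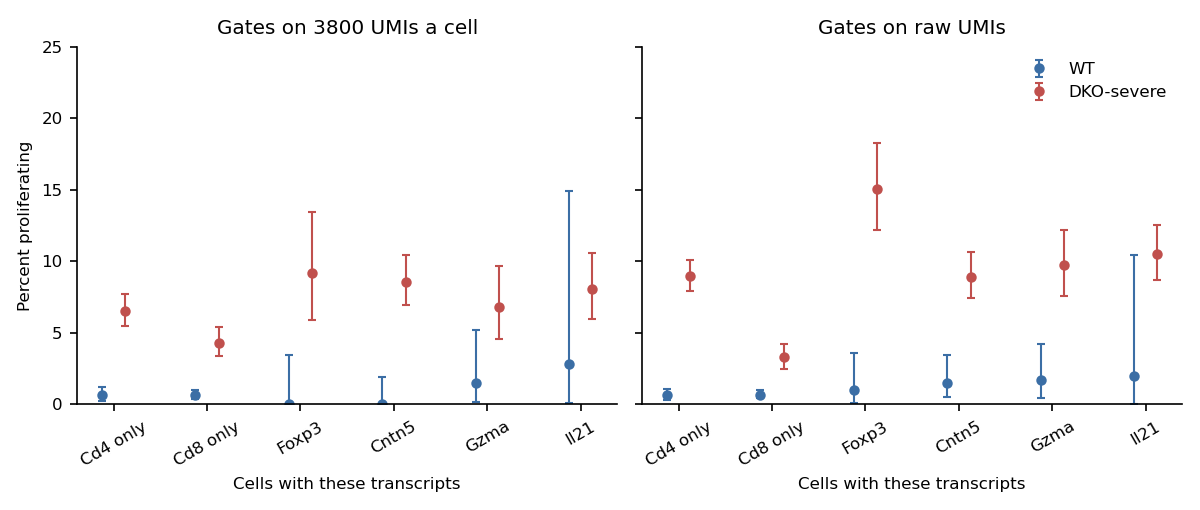
Percent of T cells that were proliferating among cells with the named transcripts, in WT and DKO-severe, with gates on thinned counts (left) and on deposited counts (right); points are the 1 mouse of each genotype and lines are exact 95% intervals for counting error. In DKO-severe the Cd4-only share is 6.56% and the Cd8-only share 4.29% on the left, and 9.0% and 3.29% on the right.

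*Foxp3*, the lineage factor of Treg cells, was detected in 85 of the 417 DKO-severe members (20.4%) and in 2 of the 47 WT members. Of the other DKO-severe T cells 8.51% held it on the deposited counts. At equal depth the intervals overlapped, since 5.58% of DKO-severe members (3.57 to 8.26%) and 4.32% of the other T cells (3.78 to 4.90%) held a *Foxp3* UMI. Its level was 15.7 CPM in members and 15.2 CPM in the others, a log2 ratio of 0.05 (-0.22 to 0.31). Within the Cd4 gate on thinned counts, 7 of 86 cells with *Foxp3* (8.14%) and 6.49% of those without were proliferating. On the deposited counts these were 16.5% (58 of 351) and 7.92% (193 of 2438), at median depths of 11805 and 7985 UMIs. Of the Cd8-gated cells on the deposited counts, 0 of 58 members (0 to 6.16%) and 1.23% of the others held one. The median depths of these members and others were 16251 and 9139 UMIs. Of Cd4-gated members 23.1% held one, at a median of 20351 UMIs. At equal depth 3 of 71 Cd8-gated members (4.23%, 0.880 to 11.9%) and 7 of 130 Cd4-gated members (5.38%, 2.19 to 10.8%) held one, and these overlapped. Since no Cd8-gated member held one on the deposited counts, these 3 cells had held both coreceptors and lost *Cd4* in thinning. Of the DKO-severe members with both coreceptors, 32.7% were among the highest 6% of doublet scores. The overlap thus does not describe cells with CD8 alone. In WT no proliferating cell was found among 105 cells with *Foxp3* on thinned counts (0 to 3.45%).

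*Cntn5* encodes a neural cell adhesion protein of the contactin family and was read in 113 DKO-severe members (27.1%) and 5 WT members. Its level was 837 CPM in DKO-severe and 6.31 CPM in WT members (7734 and 6 UMIs), a log2 ratio of 7.05 (5.93 to 8.50). The other DKO-severe T cells stood higher, at 1094 CPM, although fewer of them held it on the deposited counts (20.4%, 19.4 to 21.5%, against 22.9 to 31.6% for the members). At equal depth 21.4% of members (17.5 to 25.6%) and 17.8% of the others (16.7 to 18.8%) held it, and these overlapped. Within the thinned Cd4 gate, 6.59% of cells with *Cntn5* and 6.55% of cells without were proliferating. Of Cd4-gated members 30.3% held it, and 31.2% of the other Cd4-gated cells. In the Cd8 gate 7 of 58 members (4.99 to 23.3%) and 6.10% of the others (5.01 to 7.34%) did on the deposited counts, which overlapped. At equal depth 12.7% of members (5.96 to 22.7%) and 4.23% of the others (3.29 to 5.34%) did, which did not overlap. The thinned gate held 71 members, as it also took in cells that had held both coreceptors and lost *Cd4*. The gap at equal depth is therefore not a reading of cells with CD8 alone.

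*Gzma* encodes the killer-granule protease granzyme A. It was read in 65 DKO-severe (15.6%) and 4 WT members, at 148 and 17.9 CPM, a log2 ratio of 3.05 (2.37 to 3.84), and 1 WT member held 82.4% of the WT UMIs. Other DKO-severe T cells had more of it, at 263 CPM. Of the Cd8-gated DKO-severe members, 21 of 58 (36.2%, 24.0 to 49.9%) held *Gzma*, and 21.3% (19.4 to 23.3%) of the other Cd8-gated cells. At equal depth these were 21.1% (12.3 to 32.4%) and 16.2% (14.4 to 18.1%), which overlapped. Within the thinned Cd8 gate, 5.54% of cells with *Gzma* and 4.05% of cells without were proliferating.

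*Il21*, the cytokine by which T follicular helper (Tfh) cells drive germinal centre B cells, was read in 106 DKO-severe members (25.4%) and 1 WT member. In DKO-severe it was held on the deposited counts by 83 of the 251 Cd4-gated members (33.1%) and by 28.0% of the other Cd4-gated cells, at median depths of 20351 and 7970 UMIs. At equal depth the order turned, to 16.2% (10.3 to 23.6%) and 19.5% (17.8 to 21.4%), with overlapping intervals. On the deposited counts it was held by 0 of the 58 Cd8-gated members and 1.17% of the other Cd8-gated cells. Of the 251 Cd4-gated members, 76 held *Cntn5*, 83 held *Il21* and 44 held both. *Foxp3* was held by 58, of which 8 also held *Cntn5* and 5 also held *Il21*, and 89 (35.5%) held none of the 3. *Pdcd1* together with *Cxcr5*, the receptor pair of Tfh cells, was read in 57 of the 251 (22.7%) and in 14.9% of the other Cd4-gated cells on the deposited counts. Over all DKO-severe T cells it was read on the deposited counts in 21.3% of members and 9.43% of the others. At equal depth these were 2.18% (1.00 to 4.11%) and 3.39% (2.92 to 3.91%), with overlapping intervals.

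S phase and G2/M were read as the percent of a cell's UMIs in lists of 43 and 52 genes, with *Mki67* and *Top2a* left out of the second. The median G2/M share was 1.13% in WT and 0.799% in DKO-severe members, and the median S phase share 0.456 and 0.330%. More S phase than G2/M RNA was read in 9 of 47 WT members (19.1%) and in 96 of 417 DKO-severe members (23.0%). In DKO-severe the Cd8-gated members stood lower in G2/M, at a median of 0.568%, than the Cd4-gated members at 0.822%, and 20 of 58 (34.5%, 22.5 to 48.1%) against 52 of 251 (20.7%) had more S phase RNA. In WT the order of the medians was the other way, at 1.25% in 22 Cd8-gated and 0.859% in 11 Cd4-gated members. DKO-severe members with *Foxp3* had a G2/M median of 1.00% and those with *Il21* one of 0.468%. Not every member was rich in either list. A member was low when each share was at or under its own limit. That limit was the 95th percentile of T cells of its genotype with neither gene of the rule. By these limits 8 WT (17.0%) and 68 DKO-severe members (16.3%) were low. In DKO-severe they were 28 of the 106 members with *Il21* (26.4%) and 9 of the 85 with *Foxp3* (10.6%). Without the low members the G2/M medians were 0.769% for *Il21* and 1.10% for *Foxp3*.

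**Figure D3:**
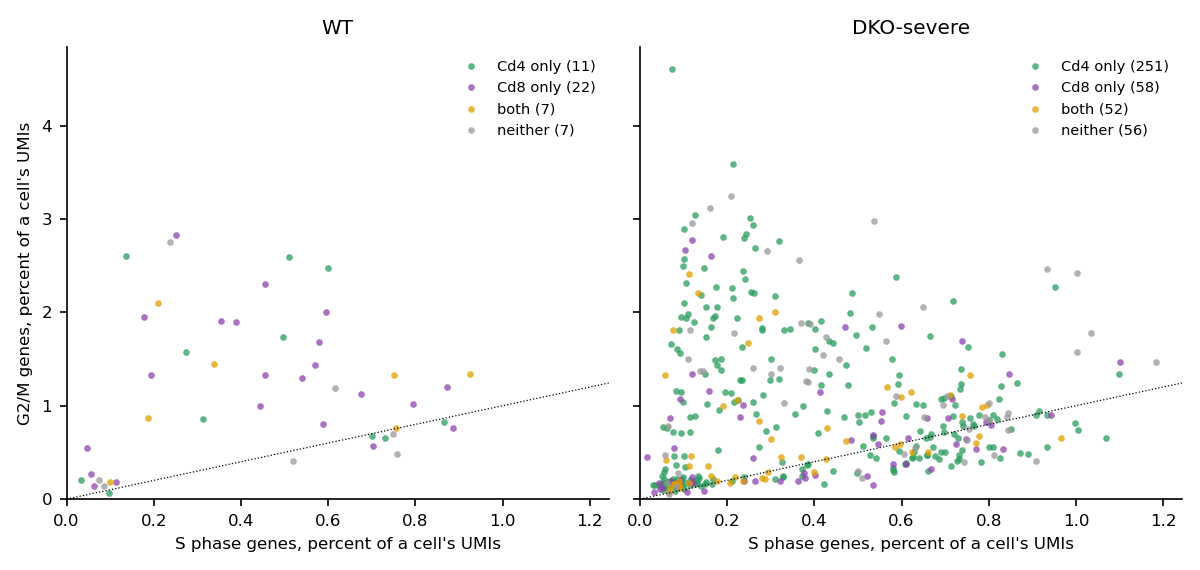
S phase genes (x axis) and G2/M genes (y axis) as percent of each proliferating T cell's UMIs, 1 point per cell, coloured by lineage gate, for WT (left, 47 cells) and DKO-severe (right, 417 cells). Points near the origin are members low in both lists, 17.0% of WT and 16.3% of DKO-severe members. The limit of each list was the 95th percentile of T cells with neither *Mki67* nor *Top2a*.

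Within each genotype, cycling and other T cells differed most in the cycle genes themselves. This contrast chose the cells and is only described. In WT, 696 of 6165 genes (11.3%) stood at least 2-fold higher in members, led by *Esco2* (log2 ratio 7.37), *Kif4* (7.33), *Hist1h1b* (7.28), *Mxd3* (7.24) and *Hmmr* (7.19). *Esco2* acetylates cohesin during DNA copying and *Kif4* encodes a mitotic chromosome motor. In DKO-severe, 395 of 6451 genes (6.12%) did, led by *Prss34* (9.09), *Esco2* (7.40), *Kif4* (6.54), *Neil3* (6.36) and *Hist1h1b* (6.27). All 690 UMIs of the mast cell and basophil protease *Prss34* came from 1 member. The G2/M list had a median log2 ratio of 4.51 in WT and 3.81 in DKO-severe, the S phase list 2.60 and 2.23 and nucleotide synthesis 3.23 and 2.36. The naive-state list was lower in cycling cells of both mice, at medians of -1.17 and -0.86. In DKO-severe the Tfh-related list had a median of 0.07 between cycling and other T cells.

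The genotypes were then compared within cycling cells, on UMIs summed over members and scaled to CPM, for genes with at least 20 CPM as the mean of both genotypes and at least 100 UMIs in all. This filter lets through some genes by their level in 1 genotype alone, so some list medians are also given over every listed gene with a ratio. Every other median covers the genes past the filter alone, and can differ from that over all listed genes. A gene was called at a 2-fold difference, a rule of size with no test. Of 6350 genes, 329 (5.18%) stood higher in DKO-severe and 98 (1.54%) lower, with a median log2 ratio of 0.03 over all. The summed UMIs were 950715 in WT and 9241694 in DKO-severe. The list medians and the 2-fold calls set counts under 3 UMIs to 3. Ratios of single genes are given as counted, or as a lower bound with that floor where a side held no UMI.

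The genes of the cycle itself took no larger part of the RNA in DKO-severe members. None of the 49 G2/M genes was called, their median log2 ratio was -0.42, and 3 of the 49 were above 0. None of the 42 S phase genes was called, at a median of -0.31, nor any of the 11 nucleotide synthesis genes, at -0.30, the 7 mitotic cyclins and exit genes, at -0.37, the 4 CDK inhibitors, at -0.30, or the 15 E2F, RB, MYB and FOXM1 factors, at -0.38. *Birc5* stood at 350 CPM in DKO-severe and 514 CPM in WT (log2 ratio -0.56) and *Cdk1* at 157 and 192 CPM (-0.29). Among cyclins and CDKs, 2 of 11 were called and both act in G1, before DNA is copied. *Cdk6* stood at 234 and 82.0 CPM (1.51) and cyclin D3 (*Ccnd3*) at 610 and 278 CPM (1.14). *Cdkn1a*, the p21 inhibitor of CDKs, had a mean level under the filter, with 34.0 CPM in DKO-severe and 2.10 CPM in WT (314 and 2 UMIs), a log2 ratio of 4.01 (2.15 to 7.07). Of 6 DNA methylation genes none was called, and the maintenance methylase *Dnmt1* stood at 131 and 215 CPM (-0.71).

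Helper and killer genes were higher in DKO-severe cycling cells. Of 7 Tfh-related genes 5 were called higher and the list median was 1.54, or 1.26 over all 12 listed. *Maf*, a transcription factor of Tfh cells, stood at 288 CPM in DKO-severe and 63.1 CPM in WT (2.19, 1.82 to 2.58), *Bcl6*, the Tfh lineage factor, at 56.8 and 16.8 CPM (1.76, 1.04 to 2.57), *Pdcd1*, which encodes PD-1, at 82.8 and 28.4 CPM (1.54, 0.99 to 2.15), *Tox2* at 83.8 and 22.1 CPM (1.92) and the costimulator *Icos* at 332 and 159 CPM (1.06). Of 4 Treg genes 3 were called higher: the IL-2 receptor α chain *Il2ra* (65.7 and 18.9 CPM, 1.79), the inhibitory receptor *Ctla4* (256 and 103 CPM, 1.31) and *Ikzf2*, which encodes Helios (1093 and 544 CPM, 1.01). *Foxp3* was under the filter, at 15.7 and 2.10 CPM (145 and 2 UMIs), a log2 ratio of 2.90 (1.02 to 5.96). Of 6 cytotoxic genes 4 were called higher and *Eomes*, a transcription factor of memory killer cells, lower, with a median of 1.39, or 0.88 over all 10 listed. The chemokine *Ccl5* stood at 957 and 230 CPM (2.05), the granule gene *Nkg7* at 384 and 171 CPM (1.16) and *Gzmb* at 119 and 38.9 CPM (1.62), with 94.6% of the WT *Gzmb* UMIs in 1 member. The lineage mix differed between the genotypes as given above. Without the members that carried RNA of other cells the medians were 1.46 for the Tfh-related, 1.65 for the cytotoxic and -0.28 for the G2/M list.

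Activation genes followed. Of 12 genes of IL-2 and antigen receptor activation 6 were called higher, among them the costimulatory receptors *Tnfrsf9* (4-1BB) at 137 and 18.9 CPM (2.85, 2.18 to 3.61) and *Tnfrsf4* (OX40) at 392 and 83.1 CPM (2.24, 1.92 to 2.58). Of 8 naive-state genes 4 were called lower and none higher, with a median of -0.91, among them *Ccr7*, the lymph node homing receptor (-1.36), and the transcription factors *Lef1* (-1.14) and *Tcf7* (-1.10). Glycolysis had 1 of 12 called higher (median 0.30), apoptosis and BCL2 family genes 1 of 8 (0.47) and interferon-stimulated genes 1 of 5 (0.36). No gene of the innate-like list or of the *Myl1* programme passed the filter.

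All 4 tested genes of the *Cntn5* programme and all 3 of the *Dscam* programme were called higher, with medians of 6.03 and 3.93. These are lists of genes that earlier work on these data had found together, so their direction is no independent evidence. *Ralyl* reached 1217 CPM in DKO-severe and 7.36 CPM in WT (7.37, 6.33 to 8.68) and the opioid peptide precursor *Penk* 482 and 31.6 CPM (3.93). *Ntng1* had 936 UMIs in DKO-severe and 0 in WT, a log2 ratio of at least 5.0. The other genes with the largest ratios were *Magi2* (2418 and 2 UMIs, 6.96, 5.10 to 10.0), *Mctp1* (1635 and 2 UMIs, 6.39, 4.54 to 9.44), *Ica1l* (1201 and 3 UMIs, 5.36, 3.81 to 7.64) and *Gm15987* (975 and 2 UMIs, 5.65, 3.79 to 8.70). *Lyz2*, lysozyme of myeloid cells (4410 and 3 UMIs), *Ifitm3* (1329 and 1) and *Fcer1g* (990 and 2) also ranked there, and *Lyz2* fell from 477 CPM to 7.43 CPM in DKO-severe once members with RNA of other cells were left out. The lowest ratios were those of *Dapl1* (26.7 and 205 CPM, -2.94), *Actn1* (-2.64), *Fhit* (-2.38), *Rapgef4* (-2.31), *Mgst2* (-2.23), *4933406I18Rik* (-2.15), *Cd226* (-2.11), *Tanc2* (-2.10), *Mboat1* (-2.02) and *Themis* (206 and 806 CPM, -1.97), a gene of T cell receptor signalling.

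**Figure D4:**
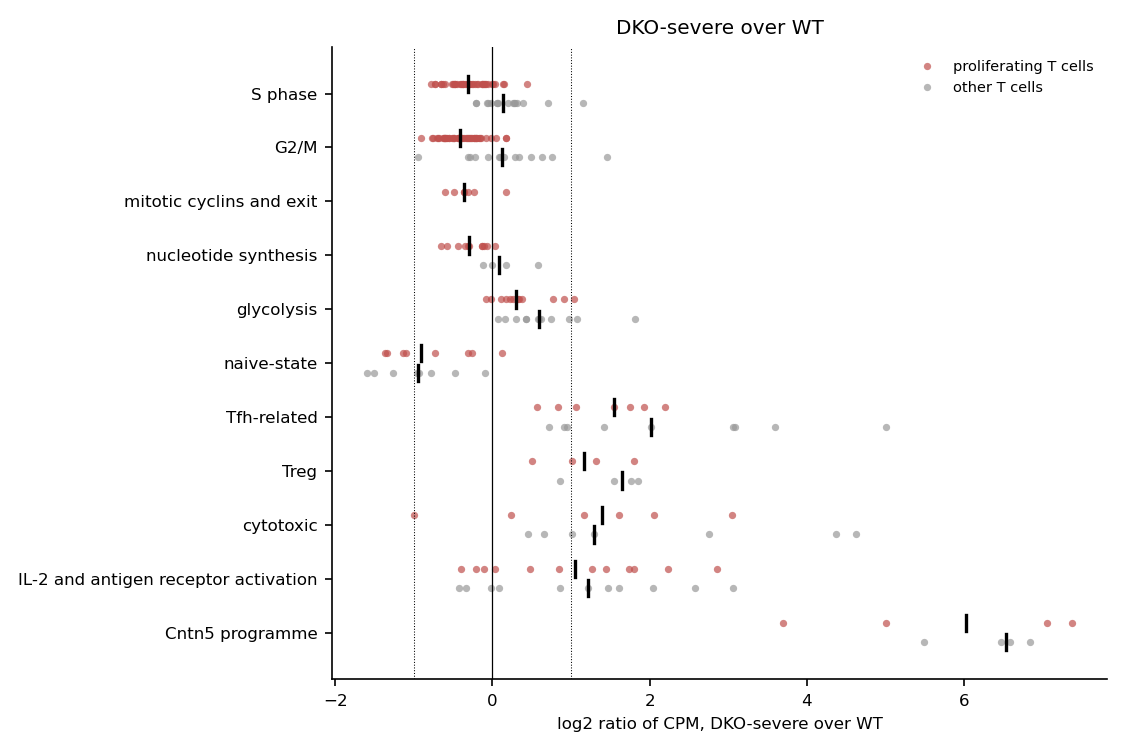
Log2 ratio of DKO-severe over WT for each gene past the filter, by gene list, in proliferating T cells and in other T cells; each point is 1 gene on summed UMIs of 1 mouse per genotype and bars mark list medians. In proliferating T cells the G2/M points centre on -0.42, the Tfh-related points on 1.54 and the naive-state points on -0.91.

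The same contrast in T cells outside the cycle had Tfh-related, cytotoxic and Treg medians of 2.01, 1.30 and 1.65 and a naive-state median of -0.95. *Maf* stood there at 291 CPM in DKO-severe and 34.8 CPM in WT, and *Pdcd1* at 68.6 and 8.11 CPM. The DKO-severe levels of *Maf* in cycling and other cells were close, and in WT the cycling cells stood higher. G2/M and S phase medians in the other cells were 0.13 over 14 genes and 0.14 over 16 genes past the filter, and 0.51 and 0.32 over all 52 and 43 listed.

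Within lineages the picture was not the same. In the Cd4 gate, 251 DKO-severe members were set against 11 WT members, and 531 of 6223 genes (8.53%) were at least 2-fold higher and 202 (3.25%) lower. Of 9 Tfh-related genes 5 were called higher, with a median of 1.07, or 0.71 over all 12 listed. *Maf* stood at 341 and 135 CPM (1.34, 0.82 to 1.91), *Bcl6* at 60.6 and 35.9 CPM (0.76, -0.24 to 1.98) and *Pdcd1* at 100 and 62.9 CPM (0.67, -0.09 to 1.55), so that neither of the latter was separated from equality by its counting interval. None of 5 Treg genes was called (0.32). The 4 of 10 cytotoxic genes that passed the filter did so through their DKO-severe level and were called higher, with a median of 3.83 from few WT counts, and over all 10 the median was 0.24. *Ccl5* had 3246 and 3 UMIs (5.44, 3.89 to 7.72), and *Gzma* 281 and 1, of which 57.3% of the DKO-severe UMIs lay in 1 member. *Tnfrsf9* was higher, at 151 and 26.9 CPM (2.49). The G2/M median was -0.35, with 1 of 50 genes called in each direction.

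In the Cd8 gate, 58 DKO-severe members were set against 22 WT members, and 60 of 2495 genes (2.4%) were at least 2-fold higher and 52 (2.08%) lower. Of 34 G2/M genes 14 were called lower, none higher, and none stood above 0, with a median of -0.94. All 4 tested genes of the mitotic list were called lower, among them cyclin A2 (*Ccna2*, 57.9 and 148 CPM, -1.35) and *Cdc20*, the activator of the anaphase-promoting complex (48.9 and 110 CPM, -1.16). Members of both genotypes had been chosen on *Mki67* and *Top2a*, which belong to the same programme. Members low in both phase lists were 12 of the 58 in DKO-severe and 3 of the 22 in WT. The S phase median was -0.19. Of 5 cytotoxic genes 4 were called higher, including *Gzma* at 729 and 32.5 CPM (4.49, 3.78 to 5.30), *Ccl5* at 3216 and 292 CPM (3.46, 3.22 to 3.71) and *Nkg7* at 925 and 254 CPM (1.87). The survival gene *Bcl2* stood at 784 and 154 CPM (2.35, 2.00 to 2.71). *Cdk6* and *Ccnd3* were higher here as well, at 1.57 and 1.07. A single Cd8-gated member held 40.3% of the DKO-severe *Gzma* UMIs and another 87.5% of the WT ones.

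Cycling Cd4-gated and Cd8-gated cells of the DKO-severe mouse were distinct in lineage genes. Of 6320 genes, 456 (7.22%) were at least 2-fold higher in the Cd4 gate and 224 (3.54%) lower. Past the filter, all 8 Tfh-related genes (median 2.20), all 4 Treg genes (2.84), all 5 genes of the *Cntn5* programme (4.81) and all 3 of the *Dscam* programme (3.85) were higher in Cd4-gated members. The filter can pass a gene through its Cd4-gated level alone. Over all listed genes with a ratio the medians were 1.59 for 12 Tfh-related and 2.49 for 7 Treg genes. *Maf* stood at 341 CPM in Cd4-gated and 24.0 CPM in Cd8-gated members (3.83, 3.25 to 4.47), *Ikzf2* at 1240 and 109 CPM (3.51) and *Tnfrsf4* at 474 and 55.9 CPM (3.08, 2.70 to 3.49). *Il21* had 249 UMIs in Cd4-gated members and 0 in Cd8-gated ones, a log2 ratio of at least 3.91, and *Foxp3* 103 and 0, at least 2.63. Of 7 cytotoxic genes 6 were lower in Cd4-gated members, with *Gzma* at 50.7 and 729 CPM (-3.85, -4.05 to -3.64) and *Ccl5* at 586 and 3216 CPM (-2.46). *Bcl2* was lower as well, at 185 and 784 CPM (-2.08).

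**Figure D5:**
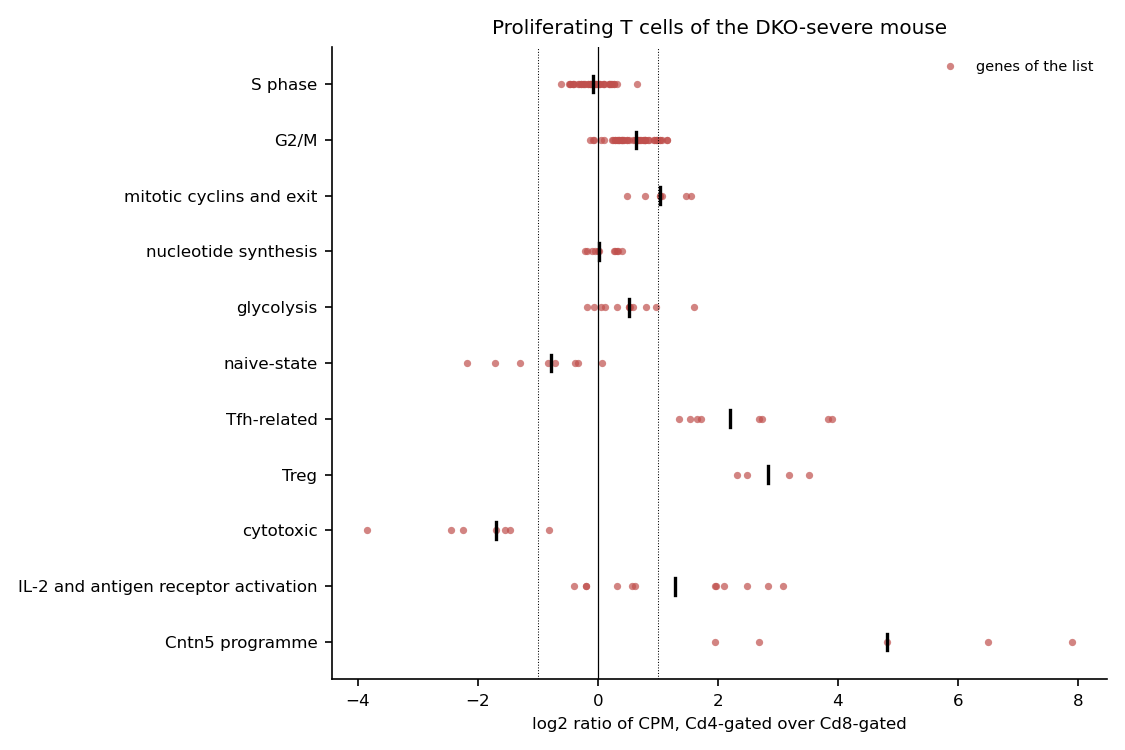
Log2 ratio of Cd4-gated over Cd8-gated proliferating T cells for each gene past the filter, by gene list, in the DKO-severe mouse. Each point is 1 gene on summed UMIs and bars mark list medians. In DKO-severe the Treg points centre on 2.84, the Tfh-related points on 2.20, the cytotoxic points on -1.69 and the G2/M points on 0.63.

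The cycle genes also differed between these lineages. Of 46 G2/M genes 43 were above 0, 5 were called higher in Cd4-gated members and none lower, with a median of 0.63 beside 0.14 over all genes. Of 7 mitotic cyclins and exit genes 5 were called higher, led by the mitotic kinase *Plk1* (70.2 and 24.0 CPM, 1.55, 0.96 to 2.21) and cyclin B1 (*Ccnb1*, 82.5 and 30 CPM, 1.46, 0.93 to 2.05). S phase genes stood at a median of -0.09 with none of 41 called. In WT the G2/M median between the lineages was 0.02 over 25 genes, from 11 and 22 cells.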

How the data were processed

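Single-cell RNA-seq counts of 1 WT and 1 DKO-severe mouse were used. Per the labels and methods, the authors aligned the reads to mm10 with Cell Ranger, separated the mice by hashtag and worked in Seurat. The deposited matrices hold UMI counts per gene and barcode, and the counts were used as deposited. Members were chosen by the rule given above. The members and gene lists were chosen with earlier results of these data known. All 20 lists were described by their counts and medians beside those of all genes past a filter of 20 CPM as the mean of both groups and 100 UMIs in all. Depth was 45294779 UMIs in WT and 69692053 in DKO-severe. Because detection of a transcript depends on depth, gates were also read after thinning each cell to 3800 UMIs at random, leaving out shallower cells. Shares have exact Clopper-Pearson 95% intervals and ratios exact conditional intervals. PCR duplicates were collapsed by UMI, but cells of 1 mouse share their source, so intervals cover counting error alone and no p-value was computed. Genes named were the 10 highest and 10 lowest ratios between genotypes, the 5 highest between cycling and other cells in each genotype, and genes of the lists. Scripts used Python 3.11.15, numpy 2.4.6, scipy 1.17.1, pandas 2.3.3 and scanpy 1.11.5 and were tested on simulated data for the comparison of members between genotypes: of 200 genes changed by a log2 fold of 2 among 6455, 100% passed the 2-fold limit, and 0.048% of unchanged genes did. The simulation drew counts for summed cells without spread between cells, and its folds lay well past the limit. Its rates therefore do not hold for genes whose UMIs lie in few cells. Alternatives were stricter rules, other cycle genes, removal of high doublet scores, other gates, filters, scalings and depths. One more, without RNA of other cell types, was chosen after seeing the data: members needed 10 or more UMIs of T cell markers, under 10 of monocyte or macrophage, under 100 of erythroid and under 5 of B cell markers. Barcodes outside the T cell rule were left out.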

Additional observations from a re-analysis of the deposited data

Results flagged for a closer look

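Barcodes with *Mki67* and *Top2a* that failed another part of the rule stood out because they lie outside every comparison and were more frequent in the DKO-severe mouse. In DKO-severe, 40 such barcodes held no *Cd3* UMI, against 1 in WT. Granulocyte markers summed to 102291 CPM in these 40, B cell markers to 2289 CPM and erythroid markers to 2836 CPM. T cell markers summed to 37.5 CPM in them, against 5166 CPM in DKO-severe members. A further 39 held *Cd3* and more than 10 UMIs of *S100a8*, against 0 in WT, with granulocyte markers at 172262 CPM and T cell markers at 2150 CPM. Another 25 held more than 1 UMI of *Cd79a*, against 4 in WT, with B cell markers at 2808 CPM, plasma cell markers at 5732 CPM and T cell markers at 2043 CPM. Whether these are cycling cells of other types or doublets was not tested.

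The genotype ratio of 2 lists had opposite signs in the lineages over the genes past the filter, but not over all genes with a ratio. The Tfh-related median was 1.07 on the log2 scale in Cd4-gated members and -0.66 in Cd8-gated members, where 2 genes passed the filter, and over the 12 and 9 genes with a ratio it was 0.71 and 0.39. The Treg median was 0.32 in Cd4-gated members and -1.57 in Cd8-gated members, where *Ikzf2* alone passed the filter, and over 7 and 5 genes with a ratio it was 0.32 and 0.15. The opposite signs thus rest on 2 genes and 1 gene. Neither difference was tested, since there was 1 mouse per genotype.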

How the results depend on the processing

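Under every alternative run, the share of cycling T cells was higher in DKO-severe than in WT, and in DKO-severe the cycling share of Cd4-gated cells was higher than that of Cd8-gated cells. The lineage intervals overlapped in 6 of the 9 alternatives, and stayed apart with a stricter cell filter, gates on deposited counts and another seed. With 2 or more UMIs of *Mki67* and of *Top2a*, the WT share was 0.490%, the DKO-severe share 4.65%, and its Cd4-gated and Cd8-gated shares 4.04 and 2.54%. With *Birc5* and *Cdk1* in place of the rule's genes, the DKO-severe share was 4.17%, with 3.68 and 2.30% by lineage, and the G2/M list median -0.063. Without any UMI of *Cd79a*, *Cd79b*, *S100a8* or *S100a9*, the shares were 0.369% in WT and 5.08% in DKO-severe, the Cd4-gated part of WT members 31.3%, the cycling share of WT Cd8-gated cells 0.272%, of DKO-severe Cd4-gated and Cd8-gated cells 5.19 and 2.87%, the cytotoxic median 2.24 and the G2/M median -0.045. Without RNA of other cell types the DKO-severe share was 6.15%. Thinned to 3800 UMIs the shares were 0.480 and 3.64%, and 3.73% in DKO-severe with another random seed. Membership on thinned counts gave 2.91% of Cd4-gated and 1.74% of Cd8-gated DKO-severe cells. Gates on deposited counts gave 9.0 and 3.29%, and 60.2% of DKO-severe members in the Cd4 gate; at 2 or more UMIs 46.5 and 12.9% of them were Cd4-gated and Cd8-gated. Between genotypes, a filter of 50 CPM left 143 genes higher and 52 lower, with a cytotoxic median of 1.83, since fewer genes are tested. The mean of each cell's CPM gave 156 lower. Cd4-gated members alone gave 531 higher and 202 lower genes, a cytotoxic median of 3.83 over 4 genes (0.24 over all 10) and a naive-state median of -0.63. Cd8-gated members alone gave 60 and 52 genes, medians of 1.87 for cytotoxic, -0.044 for naive-state and -0.94 for G2/M genes, and a Tfh-related median of -0.66 over 2 genes, the 1 value that turned its direction (0.39 over the 9 genes with a ratio). Where no construction is named, the cause was not tested. No paired analysis was possible because the labels number 1 library per kind and each genotype has 1 mouse. With 47 WT members, 8 WT Cd4-gated cells on thinned counts limit every WT lineage value.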

Other observations

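The variable segment of the T cell receptor β chain gave a view of the cycling cells that the rule did not use. Of 129 Cd4-gated DKO-severe members with a leading *Trbv* segment, 47 (36.4%, 28.1 to 45.4%) read *Trbv12-2*, against 30.7% of the other Cd4-gated DKO-severe cells. *Trbv13-2* led in 21.7% of the members and 26.4% of the others, and *Trbv19* in 12.4 and 11.1%. The order of these 3 segments was the same in cycling and other helper cells, and in the Cd4 gate the interval for *Trbv12-2* held the share of the others. Over all lineages it led in 36.0% of 203 DKO-severe members (29.4 to 43.0%) and 26.4% of the others (24.3 to 28.5%), which did not overlap, and the lineage mix of these groups differs. Of 19 Cd8-gated DKO-severe members 4 read *Trbv12-2*, and of 23 WT members 5 read *Trbv20*, the leading segment there. Near-identical segments can share reads, and no clonotypes were used here.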
